A study of Rattus norvegicus with 37 samples.

Results

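Livers of rats with a spinal cord contusion that lived in large cages (CONT SCI + Large, 5 rats) were compared with livers of uninjured rats in standard cages (No SCI + Standard, 5 rats). These 10 libraries, chosen by their sample titles, are 10 of the 37 in the series and 10 of the 15 in its SCI + In-Cage Activity set. The other 5 of that set are contused rats in tiny cages (CONT SCI + Tiny). In a separate SCI + Exercise set, contused rats without exercise (CONT SCI, 4) and uninjured rats (No SCI, 4) were both in tiny cages.

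All 10 rats were female Sprague Dawley animals, an outbred strain, estimated from their weight at 8 to 9 weeks of age at the start. In the injured rats the cord was contused at T2 with an impact of 25 g-cm, and their livers were taken 11.5 weeks later. The uninjured rats were killed at the equivalent time. Sex, strain, age, level and impact of injury and time were the same in the CONT SCI + Tiny and CONT SCI rats. The No SCI rats of the Exercise set had the sex, strain, age and time of the uninjured rats here. Injured rats moved to the large cages a few days after surgery. Rats of a group shared cages in pairs, and the labels do not say which rats shared one. Anaesthesia, laminectomy, antibiotic and pain relief came with the injury, and whether the uninjured rats had any of these is not given in the sources used here. Injury, surgical care and cage size changed together between the groups, so their parts in a difference cannot be told apart.

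The liver makes most plasma proteins and bile acids, stores glycogen, handles fats and clears drugs, and its resident macrophages meet material that arrives from the gut. It receives sympathetic nerves whose spinal neurons lie below an injury at the upper thoracic level. A T2 contusion also leaves locomotion of the hindlimbs impaired, and the cage sets how far a rat can move. By the authors' dimensions, the base of the large cage was shorter on its long side and longer on its short side than the standard cage. The comparison asks how liver RNA differs between contused rats in large cages and uninjured rats in standard cages, long after the injury.

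Poly(A) RNA was sequenced and the reads were counted on genes. Totals were 22165276 to 24039725 counts per rat in CONT SCI + Large and 20581132 to 23933922 in No SCI + Standard. Of 24613 genes in the table, 13013 had a count in all 10 rats and 7450 had none in any. Levels are given as CPM, a gene's counts per library total on a common scale after TMM scaling, a correction for library make-up. After a filter on low counts 11852 genes were tested, and they held at least 99.9% of the counts of each rat. The table lists Ensembl rat gene identifiers without gene names, and 0 of the identifiers matched the 47357 genes of the RefSeq table used here. Genes are therefore given by identifier, their functions are not stated, and the liver label was not checked against marker genes. In bulk tissue fewer cells of a type cannot be told apart from less RNA per cell.

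The whole transcriptomes of the 2 groups lay further apart than in most other splits of the rats into 5 and 5. Most single genes differed by small amounts. Across the 11852 genes, 25.8% of the squared distance between rats (on log2 CPM) lay between the groups, with p = 0.0238 in a one-sided exact permutation test. The test ran over every relabelling of the 10 rats into 5 and 5, which allows a p no smaller than 0.00794. Any split of the 10 rats leaves some share between its groups, so the whole 25.8% does not measure a group difference. The median size of a gene's difference was 0.27 on the log2 scale, or 1.21-fold, and single genes ranged from −3.53 to 3.76. Spread between rats adds to this median size, and its part was not separated. In a test of each gene, the quasi-likelihood method of edgeR called 4 genes at an adjusted p (Benjamini-Hochberg) under 0.05, which is 0.0337% of those tested. Of these, 2 were higher in CONT SCI + Large (0.0169%) and 2 were lower (0.0169%). DESeq2 called 1387 genes in the same 10 rats, 690 higher and 697 lower, these 4 among them.

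The gene with the largest change of the 4 was ENSRNOG00000009329. Its level was 22.9, 28.03, 16.2, 51.4 and 46.3 CPM in CONT SCI + Large replicates 1 to 5. In No SCI + Standard replicates 1 to 5 it was 2.26, 4.44, 5.32, 5.05 and 8.78 CPM. The lowest injured rat was above the highest uninjured rat, and the injured rats spread over a wider range than the uninjured rats. The means were 32.97 ± 15.2 and 5.17 ± 2.35 CPM (SD, n = 5 each). ENSRNOG00000009329 rose 6.35-fold, a log2 change of 2.67 with a 95% interval of 1.85 to 3.48 (adjusted p = 0.0344, edgeR). The values rest on 376 to 1239 counts per injured rat and 42 to 190 per uninjured rat.

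ENSRNOG00000014761, the other gene that rose, was expressed at a low level in both groups. It stood at 2.01, 2.05, 2.02, 3.11 and 2.22 CPM in CONT SCI + Large replicates 1 to 5. The uninjured replicates 1 to 5 had 0.646, 0.748, 0.272, 0.495 and 0.462 CPM. The groups did not overlap, and 4 of the 5 injured rats lay close together with replicate 4 above them. Means were 2.28 ± 0.471 against 0.525 ± 0.183 CPM (SD, n = 5 each). The change was 4.36-fold, 2.12 on the log2 scale with a 95% interval of 1.53 to 2.71 (adjusted p = 0.0151, edgeR). It rests on few reads: 47 to 75 counts per injured rat and 7 to 17 per uninjured rat.

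ENSRNOG00000007601 had the smallest p of all genes tested and fell. CONT SCI + Large replicates 1 to 5 had 28.1, 38.8, 45.3, 44.6 and 52.1 CPM. No SCI + Standard replicates 1 to 5 had 108.0, 107.9, 94.7, 88.2 and 112.1 CPM. All 5 injured rats lay far below all 5 uninjured rats, with a spread of similar size in both groups. The means of 41.8 ± 8.99 and 102.2 ± 10.2 CPM (SD, n = 5 each) differed 2.45-fold, or −1.29 on the log2 scale with a 95% interval of −1.62 to −0.96 (adjusted p = 0.0146, edgeR).

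ENSRNOG00000019358 also fell. Its level was 24.5, 17.6, 20.3, 18.97 and 18.7 CPM in CONT SCI + Large replicates 1 to 5. In the uninjured replicates 1 to 5 it was 33.3, 44.3, 53.2, 53.5 and 71.5 CPM. The injured rats formed a narrow band and the uninjured rats a wide one, with no overlap. Means were 20.0 ± 2.69 and 51.2 ± 14.1 CPM (SD, n = 5 each), a 2.55-fold difference of −1.35 on the log2 scale with a 95% interval of −1.74 to −0.97 (adjusted p = 0.0151, edgeR).

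**Figure D1:**
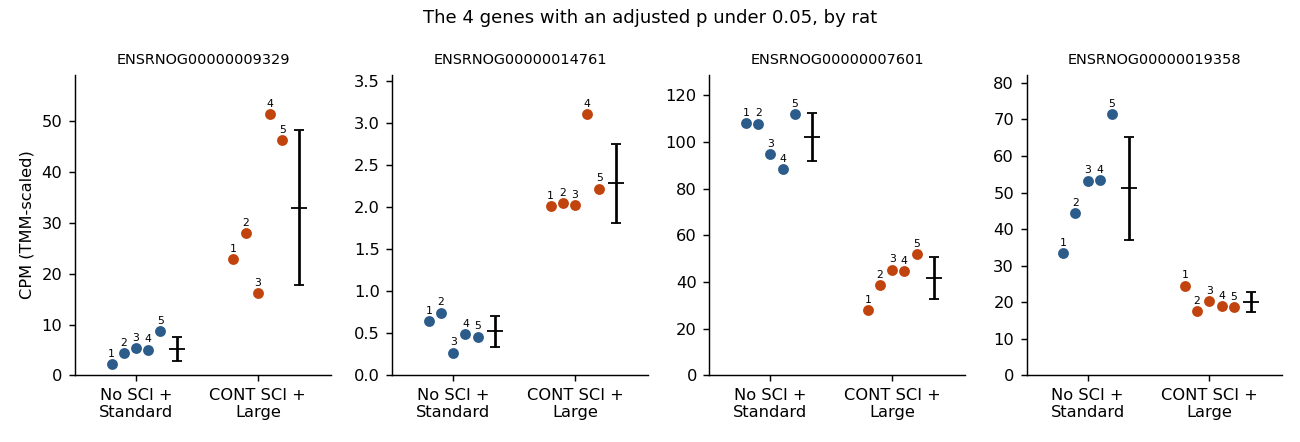
CPM (TMM-scaled over the 10 libraries, linear axis from 0) of the 4 called genes in each rat, with the replicate number above each point and mean ± SD beside each group (n = 5). In every panel the 5 CONT SCI + Large rats lie wholly on one side of the 5 No SCI + Standard rats, and the widest groups are CONT SCI + Large for ENSRNOG00000009329 and No SCI + Standard for ENSRNOG00000019358.

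Each of these 4 calls depended on which rats were in the fit. With 1 rat left out at a time, ENSRNOG00000007601 stayed under an adjusted p of 0.05 in 9 of 10 edgeR fits, ENSRNOG00000014761 in 7, ENSRNOG00000019358 in 6 and ENSRNOG00000009329 in 4. The fit without CONT SCI + Large replicate 2 lost all 4, with adjusted p of 0.0541, 0.0541, 0.0709 and 0.0709 in that order. Without CONT SCI + Large replicate 5 ENSRNOG00000014761 had an adjusted p of 0.0624, and ENSRNOG00000019358 and ENSRNOG00000009329 one of 0.0768. Without No SCI + Standard replicate 4 the first of these had 0.0692, the second 0.0692 and the third 0.158. Without No SCI + Standard replicate 3 ENSRNOG00000019358 and ENSRNOG00000009329 had an adjusted p of 0.0742. ENSRNOG00000009329 was also lost without CONT SCI + Large replicate 4 (0.0526) and without No SCI + Standard replicate 2 (0.12). The sizes moved little in these fits: 2.45 to 2.96 on the log2 scale for ENSRNOG00000009329, 1.95 to 2.32 for ENSRNOG00000014761, −1.35 to −1.18 for ENSRNOG00000007601 and −1.45 to −1.19 for ENSRNOG00000019358.

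Behind the 4 called genes stood a long row of genes with nearly the same adjusted p. By rank of p in edgeR, the fourth gene had an adjusted p of 0.0344 and the fifth one of 0.0579. Ranks 6 to 100 shared an adjusted p of 0.0635. Rank 500 was at 0.0801, rank 1000 at 0.0892 and rank 1500 at 0.102. A threshold of 0.10 in place of 0.05 therefore took in 1433 genes, or 12.1%, of which 644 were higher in CONT SCI + Large (5.43%) and 789 lower (6.66%). An unadjusted p under 0.05 was found for 3480 genes, or 29.4%, with 1748 higher (14.7%) and 1732 lower (14.6%). Under 0.001 there were 177 genes, 46 higher and 131 lower, and under 0.0001 there were 14.

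**Figure D2:**
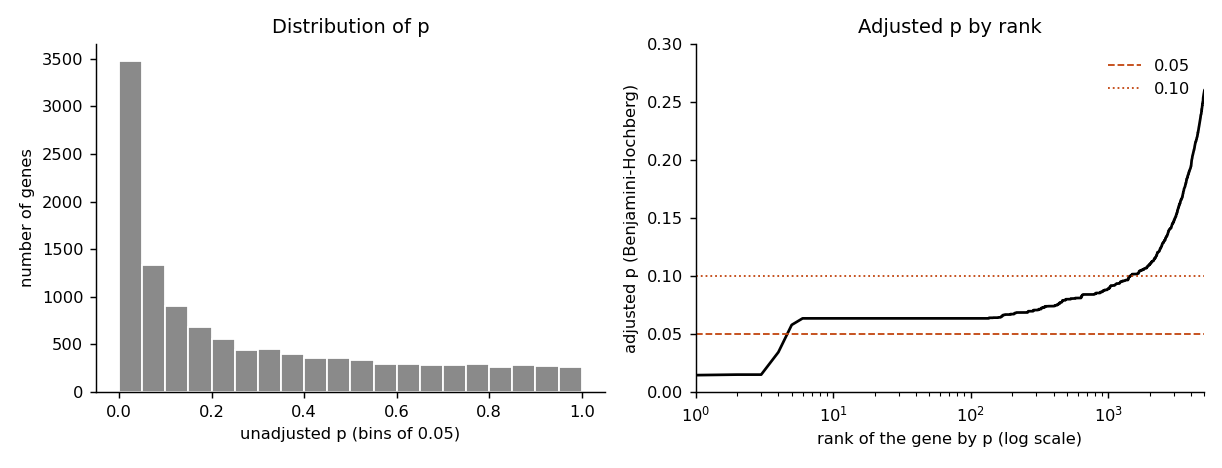
Left, number of genes in each bin of unadjusted p of width 0.05 (linear axes), edgeR test of CONT SCI + Large against No SCI + Standard over 11852 genes. Right, adjusted p against rank by p (log axis), with dashed and dotted lines at 0.05 and 0.10. The first bin holds 3480 genes, and the adjusted p runs flat at 0.0635 from rank 6 to rank 100, above 0.05 and below 0.10.

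Counted without a test, 490 genes (4.13%) had groups that did not overlap, with all 5 rats of one group above all 5 of the other. In 210 of them (1.77%) the CONT SCI + Large rats were the higher group and in 280 (2.36%) the lower. Within the higher genes the median difference was 0.54 on the log2 scale, from 0.07 to 2.67. Within the lower genes it was −0.57, from −1.79 to −0.12. Differences of at least 2-fold were found in 25 of the 210 higher and 28 of the 280 lower genes, and of at least 4-fold in 4 and 0. Of all genes tested, 178 were at least 2-fold higher and 99 at least 2-fold lower, so most of the larger differences were in genes whose groups overlapped. The gene furthest from 0 in either direction, at 3.76 and −3.53, was one of these.

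**Figure D3:**
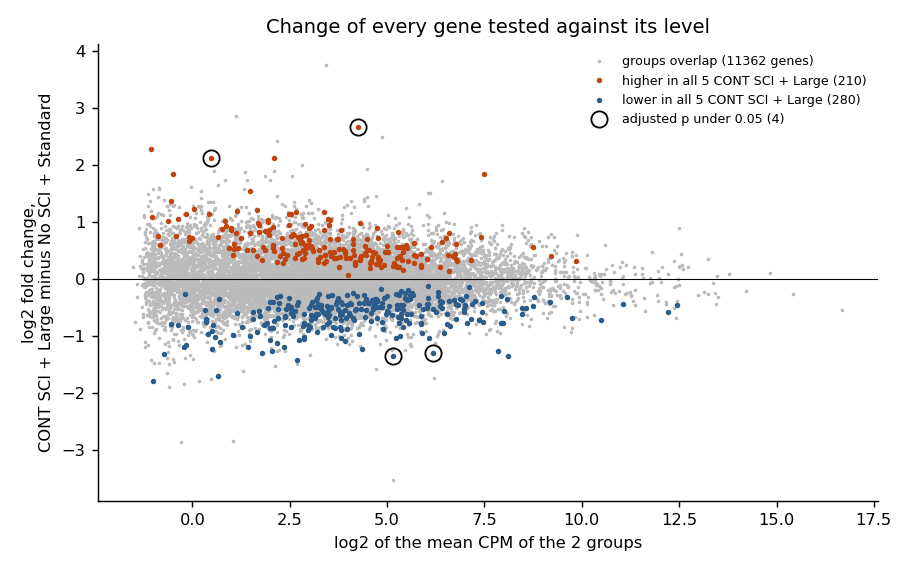
Log2 fold change (CONT SCI + Large minus No SCI + Standard) of the 11852 genes tested against the log2 of their mean CPM. Orange and blue points are the 210 and 280 genes whose groups do not overlap, higher and lower in CONT SCI + Large, and rings mark the 4 genes with an adjusted p under 0.05. The points at the far ends of the vertical axis, 3.76 and −3.53, are grey.

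The balance of higher and lower genes was not the same at all levels of expression, a difference that was not tested. Genes were split by mean log2 CPM into 4 classes of 2963, with median levels of 1.35, 6.37, 18.1 and 68.0 CPM. In the lowest class 307 genes were higher and 210 lower with an unadjusted p under 0.05, and in the highest class 480 were higher and 596 lower. The share of genes with such a p was 17.4%, 29.4%, 34.3% and 36.3% from the lowest to the highest class, while the median size of the difference went from 0.33 to 0.24 on the log2 scale. The median SD between rats of a group went from 0.43 in the lowest class to 0.22 in the highest. With RLE scaling in place of TMM these counts were 318 and 200 in the lowest class and 514 and 558 in the highest. Genes with no overlap numbered 38 higher and 29 lower in the lowest class, together 2.26%, and 48 higher and 103 lower in the highest, together 5.10%, beside 4.13% of all genes.

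The 100 most abundant genes, each at a mean of 1274 CPM or more, held 52.6% to 61.0% of the counts of a rat. None of them was among the 4 called. An unadjusted p under 0.05 was found for 4 of them in the higher and 16 in the lower direction (20%, against 29.4% of all genes), and 4 of them had groups without overlap, or 4% against 4.13% of all genes. Their differences ranged from −0.72 to 0.89 on the log2 scale, with a median size of 0.21. At the other end, 2 genes had a count in all 5 CONT SCI + Large rats and in no uninjured rat, with at most 2 counts in a rat, and 0 genes showed the reverse. By this count no gene above a trace level was detected in every rat of one group and in none of the other.

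The 10 most abundant genes of each rat took 23.8% to 26.9% of its counts in CONT SCI + Large and 24.6% to 32.3% in No SCI + Standard, with means of 25.2% ± 1.33 and 28.5% ± 2.78 (SD, n = 5 each). The injured rats also had 14790 to 15126 genes with a count, against 14696 to 14881. A two-sided exact permutation test gave p = 0.0476 for the share of the top 10 genes and p = 0.0635 for the number of genes with a count, both 0.0952 after adjustment over these 2 measures and the total count (p = 0.524). The scaling factors that allow for this make-up were 1.00 to 1.05 in CONT SCI + Large and 0.868 to 1.08 in No SCI + Standard. The share of 32.3% and the factor of 0.868 both belonged to No SCI + Standard replicate 1. The part of library make-up in the differences between the groups was not tested.

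The rats of a group were not alike, and 1 rat of each group lay toward the other group. On the first principal component, which held 43.2% of the variance (jackknife SE 8.27), No SCI + Standard replicates 5, 4, 2, 3 and 1 stood at −48.4, −32.4, −16.7, −11.2 and 4.94. CONT SCI + Large replicates 3, 5, 2 and 4 stood beyond them at 16.5, 16.9, 31.1 and 53.6, and CONT SCI + Large replicate 1 stood among the uninjured rats at −14.4. The group means differed by 41.5 on this component, with p = 0.0238 in a two-sided exact permutation test. Replicate 1 of CONT SCI + Large was 56.6 log2 CPM units from the mean of the other 4 injured rats and 42.2 from the mean of the uninjured rats. Replicate 1 of No SCI + Standard was 49.9 from its own group and 41.6 from the injured rats. The other 8 rats were nearer to their own group.

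**Figure D4:**
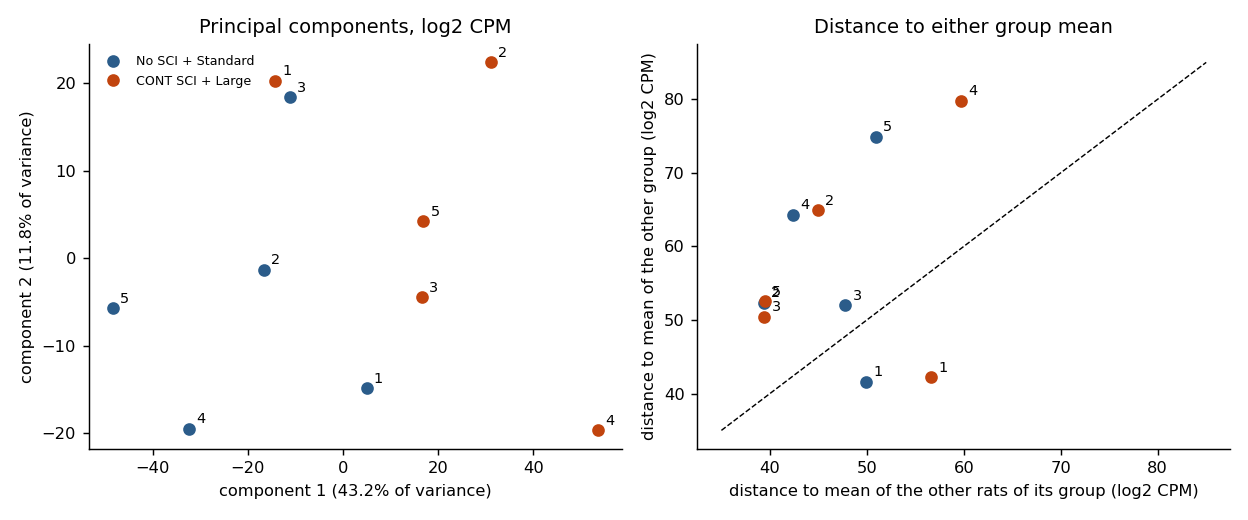
Left, first against second principal component of log2 CPM over 11852 genes for the 10 rats (numbers are replicates). Right, distance of each rat to the mean of the other rats of its group against its distance to the mean of the other group, both in log2 CPM units, with a dashed line of equal distance. CONT SCI + Large replicate 1 and No SCI + Standard replicate 1 lie under the line and the other 8 rats above it.

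Distances between rats overlapped widely. Pairs within CONT SCI + Large were 50.3 to 85.4 apart with a mean of 61.0, pairs within No SCI + Standard 49.8 to 69.6 with a mean of 58.3, and pairs across the groups 48.0 to 106.3 with a mean of 68.4. For 6 of the 10 rats, 4 uninjured and 2 injured, the closest other rat was of their own group. The spread of single genes was of the same size in both groups, with a median SD of 0.28 on the log2 scale in each, and 49.9% of genes varied more in the injured rats.

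The rats that lay toward the other group also moved the counts of called and of separated genes most. Besides the 490 genes without overlap, 1359 genes were separated but for CONT SCI + Large replicate 1 alone, 680 of them higher in the other 4 injured rats and 679 lower. Another 1003 were separated but for No SCI + Standard replicate 1, and 451 but for No SCI + Standard replicate 3. For the remaining rats this number was 56 to 189. Without CONT SCI + Large replicate 1 edgeR called 2020 genes, and without No SCI + Standard replicate 1 it called 1209, against 0 to 9 when any of the other 8 rats was left out. It called 0 without CONT SCI + Large replicate 2, 1 without replicate 5 of that group and 9 without its replicate 3. It called 1 without No SCI + Standard replicate 4 and 2 without its replicate 3. The count at an unadjusted p under 0.05 moved most with other rats, from 3480 to 2380 without No SCI + Standard replicate 5 and to 2391 without CONT SCI + Large replicate 4, and reached 4438 without CONT SCI + Large replicate 1. Leaving out a rat that lies toward the other group widens the difference by construction. Of the 2020 genes 96.3% had an unadjusted p under 0.05 with all 10 rats, and of the 1209 genes 98.3%, beside 29.4% of all genes tested. Genes called in both numbered 978, which is 48.4% of the 2020 and 80.9% of the 1209. All these fits share most of their rats, so their overlap is no independent evidence for the added calls. With a rat left out, the share of squared distance between the groups was 22.6% to 33.6% (exact permutation p of 0.0159 to 0.0476). It was highest without CONT SCI + Large replicate 1 (33.6%) and No SCI + Standard replicate 1 (31.5%). These are the rats whose removal widens the difference. Without any of the other 8 rats it was 22.6% to 28.7%, with p of 0.0397 to 0.0476 in that test.

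**Figure D5:**
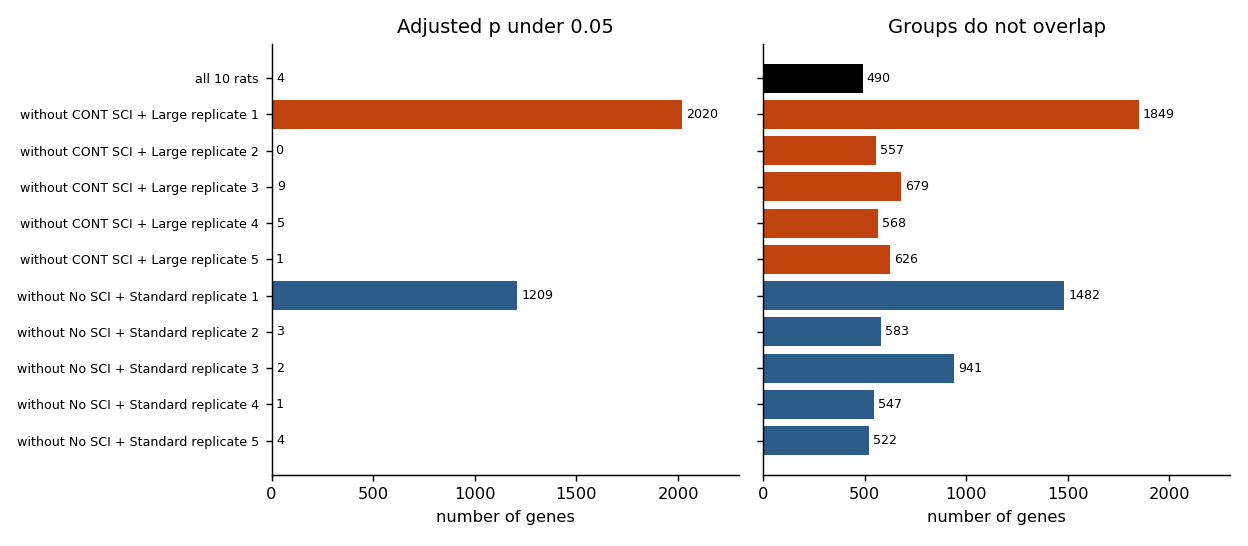
Number of genes with an adjusted p under 0.05 (left, edgeR) and with groups that do not overlap (right) for all 10 rats and with each rat left out, on linear axes from 0. The bars without CONT SCI + Large replicate 1 (2020 and 1849) and without No SCI + Standard replicate 1 (1209 and 1482) stand far above those for all 10 rats (4 and 490).

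The rats in tiny cages give the 4 genes a second contused group in the same set. The 4 genes were named from the CONT SCI + Large values that also enter the test against CONT SCI + Tiny. Its differences and p-values for them are therefore not independent of that choice. CONT SCI + Large was tested against CONT SCI + Tiny over 11920 genes, of which edgeR called 0 (0%) and 346 had an unadjusted p under 0.05 (2.90%), and DESeq2 called 3. ENSRNOG00000009329 differed by −0.21 on the log2 scale (95% interval −1.05 to 0.62), ENSRNOG00000014761 by −0.28 (−1.19 to 0.63) and ENSRNOG00000019358 by 0.03 (−0.36 to 0.43). These intervals leave room for differences of some size in either direction. ENSRNOG00000007601 was lower in large cages than in tiny cages by a log2 difference of −0.78 (−1.17 to −0.39), with an unadjusted p of 0.000758 and an adjusted p of 1.00 in edgeR. Against the same uninjured rats, which both comparisons share, CONT SCI + Tiny differed by 2.88 for ENSRNOG00000009329, 2.40 for ENSRNOG00000014761, −0.51 for ENSRNOG00000007601 and −1.39 for ENSRNOG00000019358 (adjusted p = 0.0159, 0.0243, 0.0407 and 0.0159, edgeR, with 12.5% of genes called). The call of ENSRNOG00000007601 was lost in 8 of 10 of these fits with a rat left out (adjusted p up to 0.09998, edgeR), those of ENSRNOG00000009329 and ENSRNOG00000019358 without No SCI + Standard replicate 4 (both 0.0512), and that of ENSRNOG00000014761 without No SCI + Standard replicate 4 (0.0600) or 5 (0.0609). The values beside them for CONT SCI + Large were 2.67, 2.12, −1.29 and −1.35.

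The same 4 genes were read in the SCI + Exercise set, where injured and uninjured rats were both in tiny cages and no library is shared. There edgeR called 1 of 12482 genes between CONT SCI and No SCI (0.00801%). The difference was −0.91 for ENSRNOG00000009329 (95% interval −1.59 to −0.24), −1.30 for ENSRNOG00000014761 (−2.53 to −0.07), −0.77 for ENSRNOG00000007601 (−1.44 to −0.09) and −0.17 for ENSRNOG00000019358 (−0.75 to 0.41), with adjusted p of 0.872, 0.998, 0.998 and 0.998 (edgeR). Without CONT SCI replicate 1 the difference of ENSRNOG00000009329 was called (−1.39, adjusted p = 0.0360, edgeR). Both genes that rose in the In-Cage rats thus had negative values here. A test of the difference between the sets takes in the In-Cage difference from which the 4 genes were named. Its sizes and p-values for these 4 genes are therefore not independent of that choice. It called 3 of 12511 genes (0.0240%). ENSRNOG00000009329 was one of them, at 3.61 on the log2 scale (95% interval 2.49 to 4.73, adjusted p = 0.0152, edgeR). For ENSRNOG00000014761 the difference was 3.46 (adjusted p = 0.112), for ENSRNOG00000007601 −0.49 (0.403) and for ENSRNOG00000019358 −1.15 (0.149) in the same edgeR fit. DESeq2 called ENSRNOG00000014761 (adjusted p = 9.73e-05) and ENSRNOG00000019358 (0.0404) for this difference, and edgeR called ENSRNOG00000014761 without No SCI replicate 3 (0.0437) or CONT SCI replicate 2 (0.0223).

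The levels show where the 2 sets parted. Scaled over all 37 libraries, ENSRNOG00000009329 was at 5.41 CPM in No SCI + Standard (2.38 to 9.04) and 85.3 in No SCI of the Exercise set (72.6 to 98.2), the lowest and the highest of these 5 groups. The means of the contused groups lay between. They were 34.98 CPM in CONT SCI + Large (17.2 to 54.4), 40.6 in CONT SCI + Tiny (16.1 to 57.2) and 45.3 in CONT SCI (29.4 to 84.1). The range of CONT SCI reached into that of No SCI. ENSRNOG00000014761 had the same order of means, from 0.549 CPM in No SCI + Standard (0.294 to 0.782) to 9.06 in No SCI (4.32 to 15.0). CONT SCI + Large was at 2.42 (2.11 to 3.29), CONT SCI + Tiny at 2.97 (0.646 to 5.82) and CONT SCI at 3.67 (1.07 to 6.85). For this gene CONT SCI + Tiny overlapped both uninjured groups, and CONT SCI overlapped No SCI. The ranges of the 3 contused groups overlapped for both genes. For ENSRNOG00000019358 No SCI + Standard stood alone at 53.6 CPM (35.1 to 73.7), while CONT SCI + Large, CONT SCI + Tiny, CONT SCI and No SCI were at 21.2, 20.9, 18.6 and 20.9, the last with a range of 13.8 to 30.8. For ENSRNOG00000007601 No SCI + Standard was highest at 107.1 CPM (91.0 to 115.5), CONT SCI + Tiny and No SCI followed at 76.5 (63.4 to 107.6) and 61.8 (39.2 to 88.6), and CONT SCI + Large and CONT SCI were lowest at 44.4 (29.4 to 55.1) and 36.3 (23.3 to 56.0). For each of the 4 genes the ranges of No SCI + Standard and No SCI did not overlap. The genes were chosen with No SCI + Standard as 1 of the groups, and the share of all genes separated in this way was not counted. This separation is therefore not read as particular to them. The cage of the uninjured rats (standard or tiny) and the set cannot be told apart.

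The genes without overlap were also read in the Exercise set, whose libraries had no part in choosing them. There the 210 higher genes had a median difference of −0.05, and 77 of them (36.7%) were higher in the contused rats. Of the lower genes, 278 were tested there with a median of 0.07, and 191 (68.7%) were higher in the contused rats, beside 49.8% of all genes. Across 11766 genes tested in both, the difference in the In-Cage pair and that in the Exercise pair had a Pearson correlation of −0.19 and a Spearman correlation of −0.28. The points are genes of 18 libraries and not independent of each other.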

How the data were processed

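Liver poly(A) RNA was sequenced single-end. The authors checked read quality with FastQC 0.10.1, used STAR for alignment to rn6 and counted them with HTSeq on Ensembl genes without mitochondrial genes. They deposited raw counts, whole numbers per gene and rat without normalization, and the group and replicate of each column were taken from the sample titles.

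From these counts the 5 CONT SCI + Large and 5 No SCI + Standard libraries were fitted alone with edgeR 4.0.16 in R 4.3.3 (TMM, filterByExpr at min.count 10 and min.total.count 15, glmQLFit with robust estimation, glmQLFTest). An adjusted p under 0.05 by Benjamini-Hochberg over all genes tested was a call. The SE of a log2 fold change was derived from F (size over root F), and 95% intervals use the t distribution with the fit's degrees of freedom. CPM were scaled by TMM over the 10 libraries, or over all 37 where stated. Distances and principal components used log2 CPM with a prior count of 2. The share of squared distance between groups was tested by exact permutation. CONT SCI + Large against CONT SCI + Tiny, CONT SCI + Tiny against No SCI + Standard, CONT SCI against No SCI, and the difference between the sets (4 groups in one fit) were tested in the same way. Scripts were tested on simulated data.

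No 2 libraries of a group agreed within sampling noise (lowest reduced chi-square 34.6), so each library was kept as a rat of its own. P-values set a difference between groups against the spread between these rats, some of them cage mates. No test allowed for shared cages. The genes named are all those with an adjusted p under 0.05. A further rule that names genes by symbol, the functional lists and the cell type markers need gene names and were not used here. The comparison, rules and lists were chosen with earlier results of these data known. Alternatives were DESeq2 1.42.0, limma-voom 3.58.1, RLE scaling, no filter on low counts, CONT SCI + Tiny in the fit, the replicate number as a block, no robust estimation, an adjusted p of 0.10, other transformations and each rat left out. Chosen after seeing the data were the counts at an unadjusted p, each rat left out and the block in the other comparisons, the named genes in the other pairs, RLE scaling of the level classes, and other settings of the principal components.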

Additional observations from a re-analysis of the deposited data

Results flagged for a closer look

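The injured rat with the highest level of ENSRNOG00000014761, CONT SCI + Large replicate 4 at 3.11 CPM, stood apart from the other 4 rats of its group, with a gap of 0.81 of the group's whole range. Of 16 groups of values checked in this way 1 stood out, and chance gives about 1 in 20.

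ENSRNOG00000009329 differed between contused and uninjured rats by another amount in the In-Cage set than in the Exercise set, by 3.61 on the log2 scale with an adjusted p of 0.0152 in edgeR. The adjusted p passed 0.05 with No SCI + Standard replicate 4 left out (0.05002), and with No SCI replicate 1 (0.0541), No SCI replicate 2 (0.0596), CONT SCI replicate 3 (0.0589) or CONT SCI replicate 4 (0.0530) left out. The cages of the uninjured rats differed between the sets, and their part in this was not tested. The gene was chosen by its In-Cage difference, which enters this test, so the size and p-values here are not independent of that choice.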

How the results depend on the processing

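The number of genes called between CONT SCI + Large and No SCI + Standard was 4 and stayed at 4 with RLE scaling, limma-voom and no robust estimation. It was 1387 with DESeq2, 935 with CONT SCI + Tiny in the fit, 116 without the filter on low counts (36 higher, 80 lower) and 1433 at an adjusted p of 0.10. All 1387 genes of DESeq2 had an unadjusted p under 0.05 in edgeR, beside 29.4% of all genes tested. Both tests used the same rats, so this overlap is no independent evidence for the added calls. With 1 rat left out the calls ranged from 0 to 2020 and the genes without overlap from 522 to 1849. With the replicate number as a block 1 gene was called, ENSRNOG00000009329. Correlations of same-numbered rats' deviations ran from −0.465 to 0.084 and 0 of 5 passed 0.1, and 1 of the 10 rats correlated best with its own number. These values showed no sign of pairing by number, and a shared order of handling behind the numbers was not tested. CONT SCI + Large against CONT SCI + Tiny gave 3 calls with DESeq2, 0 with the block and 0 to 1 with a rat left out. The difference between the sets gave 203 with DESeq2 and 1 to 9 with a rat left out. RLE scaling moved the share of higher genes among those with an unadjusted p under 0.05 from 50.2% to 53.2%. In CONT SCI + Large against No SCI + Standard the 4 genes kept their direction with DESeq2, RLE scaling and no filter. They also kept it with CONT SCI + Tiny in the fit, the replicate block and each rat left out. Their sizes with limma-voom and without robust estimation were not recorded. Some differences that were not called in the other pairs changed sign with a rat left out. Between CONT SCI + Large and CONT SCI + Tiny, ENSRNOG00000014761 ranged from −0.54 to 0.12 on the log2 scale (0.12 without CONT SCI + Tiny replicate 4). ENSRNOG00000019358 ranged there from −0.080 to 0.13 (below 0 without CONT SCI + Large replicate 1 or CONT SCI + Tiny replicates 1 or 3). Between CONT SCI and No SCI it ranged from −0.34 to 0.072 (0.072 without No SCI replicate 1). The near-even split of 1748 higher and 1732 lower genes at an unadjusted p under 0.05 became 1707 and 1771 with limma-voom. The cause of these changes was not tested, apart from the rats left out, which change the samples fitted. Medians of gene lists were not run, since the table holds no gene names. ENSRNOG00000014761 had a mean of 32.7 counts, and the parts of counting error and of spread between rats were not separated.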
